A study of Mus musculus with 20 samples.

Results

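This account covers the 10 female libraries among 20 RNA-seq libraries of nociceptive sensory neurons sorted from mouse dorsal root ganglia, and sets the ganglia of 2 spinal levels against each other within each pair. The lumbar group (5 libraries) came from ganglia L4-5 and the sacral group (5 libraries) from ganglia L6-S1. All mice were adults of 6 to 8 weeks, homozygous for the allele Trpv1tm2Bbm (the Trpv1 PLAP-nLacZ reporter), so that both groups carried the reporter and no library came from wild-type animals. Both groups were untreated apart from dissociation and incubation with DDAOG, a substrate that beta-galactosidase turns into the dye DDAO, and a sort kept the top 15% of DDAO-positive cells by brightness. The reporter is driven by the Trpv1 locus itself, so the gate selects cells on the activity of that locus. Members were chosen by their column labels: every female library, paired by the 2 animal numbers that each label carries. The pairs are called F1 to F5 here. The methods speak of single mice, and whether the 2 numbers mean that ganglia of 2 animals were joined is not given in the sources used here.

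Ganglia L4-5 mainly serve the skin, muscle and joints of the hindlimb, whereas ganglia L6-S1 hold most of the sensory neurons of the bladder, distal colon and reproductive organs. TRPV1 is the capsaicin- and heat-gated cation channel that marks many nociceptors, the neurons that detect harmful stimuli. The comparison asks which transcripts differ between nociceptors of the sacral and the lumbar ganglia. No value here gives the share of visceral neurons among the sorted cells.

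Levels are given as log2 RPKM (reads scaled to exon length and library size), and a difference is always sacral minus lumbar on that log2 scale, so that 1 is a doubling in the sacral library. Read numbers worked back from the table ranged from 46222068 to 62581687 per library on listed genes. The study's methods name voom with a trimmed-mean (TMM) adjustment of library size before the RPKM step. In the deposited table the median of all values present was 0.93 in each of the 10 libraries, with a largest gap of 5.8e-08, and the library size that the value of 1 read implies was 0.78 to 0.968 of the reads in lumbar and 0.898 to 1.12 in sacral libraries. The deposited scale is thus neither the plain read total nor that of the trimmed-mean factors computed here, and a step that makes the medians equal is not given in the sources used here. The mitochondrial genome took 37.7 to 57.4% of them in lumbar libraries and 21.9 to 42.1% in sacral libraries. Of 26757 genes with a value in any female library, 15470 were tested: they had at least 3 values at each level and a mean above -1 at 1 level or both. A further 4689 had enough values but a mean of -1 or less at both levels, and 14339 of the tested genes passed at both levels. Npnt (means -1.1024 lumbar and -0.9999 sacral) lay just inside that limit and Gpr135 (-1.6969 and -1.0003) just outside. A gene is called higher or lower where limma's moderated test, with the pair as a block, gave a Benjamini-Hochberg adjusted p of at most 0.05 over all tested genes. Soat1 (adjusted p = 0.04995) fell just inside that line and Akirin2 (0.0501) just outside.

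The spinal levels differed in 3607 genes (23.3% of those tested). Of these, 2323 (15.0%) were higher in sacral libraries and 1284 (8.30%) higher in lumbar libraries. Counts of called list members given below for the deposited scale stand beside these 2 shares. Of the 3607, 3309 passed the mean limit at both levels, 228 through the lumbar level alone and 70 through the sacral level alone. A gene that passed at 1 level alone had to be higher there. The differences towards lumbar were fewer but larger: 741 lumbar-high genes differed by more than 1, against 260 sacral-high genes, and by more than 2 there were 134 against 45. Among the 15070 tested genes with all 10 values, every sacral library lay above every lumbar library for 1180 genes (7.83%), and the reverse held for 394 (2.61%). The median over all tested genes was 0.12, so that the balance of directions depends on the scaling: 64.4% of calls were sacral-high as deposited, 47.0% with trimmed-mean factors, the kind of adjustment that the study's methods name, 45.6% with each pair's median set to 0, 43.8% after quantile normalization and 28.8% with reads of the mitochondrial genome left out of the library size. The named genes below are reported on the deposited scale. The count also depends on single pairs: without F4 or F5 there were 2232 and 2241 calls, and the sacral-high calls were 1507, 1467, 1341 and 1235 without F1, F3, F4 and F5 in turn.

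**Figure D1:**
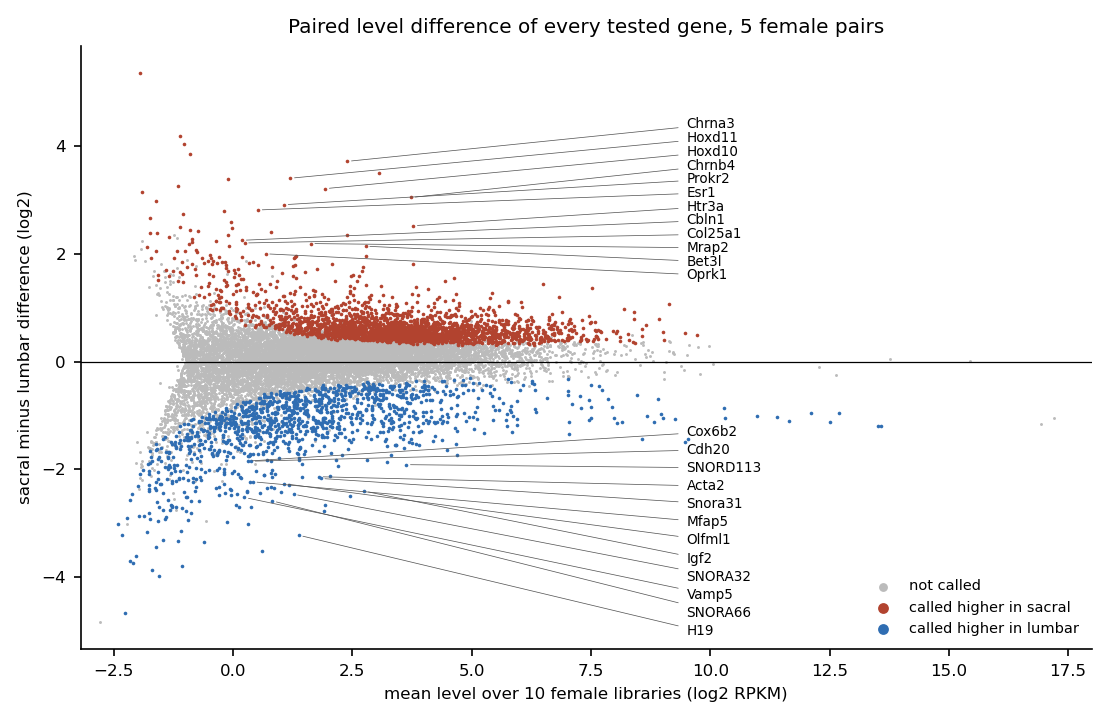
Sacral minus lumbar difference (log2, vertical axis) of the 15470 tested genes against their mean level over the 10 female libraries (log2 RPKM, horizontal axis), with called genes in colour and the 12 largest named differences in each direction labelled. Called sacral-high genes crowd at small differences and high levels, while lumbar-high genes reach further below 0 at low levels.

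The direction of calls changed with the level of the gene. With genes ranked by mean level and cut into 4 classes of equal size, 3.85% of the lowest class were called sacral-high and 11% lumbar-high, against 31.4% and 6.49% of the highest class. Among gene classes, snoRNA genes, which guide chemical modification of other RNAs, had the lowest median, -0.86: 54 of 188 tested were lumbar-high (28.7%), and 4 were sacral-high. Long intergenic RNAs had 58 of 463 lumbar-high and 36 sacral-high. Protein-coding genes had 2147 of 12770 sacral-high and 979 lumbar-high. The 636 tested genes of the X chromosome resembled the whole, with 104 sacral-high, 49 lumbar-high and a median of 0.13.

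The 5 pairs did not carry the difference equally. The median difference over the 15070 genes was 0.04 in F1, 0.03 in F2, 0.26 in F3, 0.14 in F4 and 0.19 in F5. The differences of a pair correlated across genes with the mean of the other pairs at r = 0.63 in F1, 0.50 in F2 and 0.59 in each of F3, F4 and F5. Genes are not independent replicates, and these values are descriptions. In several genes below the lumbar library of F2 stood apart from the other lumbar libraries.

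The sacral-high genes named by size are described first. Chrna3, which encodes the alpha3 subunit of the ganglionic type of nicotinic acetylcholine receptor, had lumbar levels of 1.04, 1.08, 0.29, -0.19 and 0.46 and sacral levels of 4.76, 3.19, 4.24, 4.2 and 4.85 (pairs F1 to F5 in order). No lumbar library came within 2 log2 units of the lowest sacral one, F2. The mean difference was 3.71 ± 0.28 (SE, 5 pairs, adjusted p = 8.33e-05), or 13.1-fold. Chrnb4, encoding the beta4 subunit that joins alpha3 in that receptor, went from 2.67, 2.85, 1.86, 1.74 and 1.93 to 5.88, 4.83, 4.89, 5.07 and 5.6. Its groups did not overlap, and its difference of 3.04 ± 0.20 (adjusted p = 3.79e-05) was among the 4 steadiest sacral-high differences relative to their spread. The genes are neighbours on the minus strand of chromosome 9 (mm9 chr9:54859150-54874366 and chr9:54875963-54896351), 1596 bases apart.

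Since both neighbours were far higher in every sacral library, the 250 bases before their RefSeq start sites are shown from GRCm38.p6 (Chrna3, chr9:55026563-55026812; Chrnb4, chr9:55048545-55048794; both minus strand), with that of Prokr2 (chr2:132385448-132385697, minus strand), described next. Sequences read 5' to 3' along the gene. Capitals mark the GC box GGGCGG and the oestrogen response half-site AGGTCA, each searched on both strands.
Chrna3: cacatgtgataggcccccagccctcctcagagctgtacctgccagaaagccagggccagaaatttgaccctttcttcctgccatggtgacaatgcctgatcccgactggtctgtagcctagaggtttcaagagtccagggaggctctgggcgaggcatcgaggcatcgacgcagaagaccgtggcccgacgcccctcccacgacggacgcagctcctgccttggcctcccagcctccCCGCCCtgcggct
Chrnb4: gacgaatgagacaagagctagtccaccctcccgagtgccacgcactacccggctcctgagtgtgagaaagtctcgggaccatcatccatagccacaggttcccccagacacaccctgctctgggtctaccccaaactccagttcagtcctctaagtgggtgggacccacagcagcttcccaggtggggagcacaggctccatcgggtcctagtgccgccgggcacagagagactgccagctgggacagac
Prokr2: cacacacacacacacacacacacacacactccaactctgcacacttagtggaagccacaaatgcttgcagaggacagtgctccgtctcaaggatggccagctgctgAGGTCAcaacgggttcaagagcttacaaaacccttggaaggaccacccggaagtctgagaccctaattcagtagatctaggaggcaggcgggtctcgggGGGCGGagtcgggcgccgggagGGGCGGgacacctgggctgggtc
The Chrna3 stretch holds 1 GC box, the Prokr2 stretch 2 GC boxes and 1 half-site, and the Chrnb4 stretch neither. A GC box is present in 32.7% and the half-site in 14.0% of the 32851 promoters of this length in the table. Of the 12 genes with the largest sacral-high differences, 8 were matched by symbol in the promoter table: 4 of them have a GC box and 3 the half-site. The motif TCGTAAA, bound by posterior Hox proteins, was found in none of the 8 and in 0.478% of all promoters. A match is a run of letters, not a shown binding site.

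Prokr2, the G-protein-coupled receptor for the prokineticins, rose from lumbar levels of 0.18, 0.56, -0.93, -1.04 and -0.71 to sacral levels of 2.91, 2.42, 2.35, 2.29 and 2.62. All sacral libraries lay above all lumbar ones, by 2.91 ± 0.24 on average (adjusted p = 0.000116). Htr3a, the subunit of the serotonin-gated cation channel, rose from 3.0, 2.13, 2.3, 1.92 and 3.21 to 5.6, 5.01, 4.61, 4.93 and 5.02, a difference of 2.52 ± 0.17 (adjusted p = 3.79e-05). Its highest lumbar library, F5, remained below the lowest sacral one, F3. Oprk1, the kappa opioid receptor, was below 1 in all lumbar libraries (-0.33, -0.59, -0.24, -1.02 and 0.58) and above 1 in all sacral ones (1.9, 1.81, 1.75, 1.61 and 1.32), with a difference of 2.0 ± 0.27 (adjusted p = 0.00105).

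Further sacral-high genes named by size or steadiness were of several kinds. Cbln1, a secreted synapse organizer, differed by 2.25 ± 0.35 (adjusted p = 0.00186), and 2 overlapping entries for it in the table gave like values. Col25a1, a transmembrane collagen, differed by 2.2 ± 0.30, and Mrap2, an accessory protein of melanocortin receptors, by 2.19 ± 0.36. Bet3l and Negr1, a neuronal adhesion molecule, moved less but evenly: Bet3l by 2.14 ± 0.14 and Negr1 by 1.8 ± 0.12. For each of these 5 genes the levels did not overlap between sacral and lumbar libraries. The same held for 979 of the 2323 sacral-high calls, and these 5 were chosen for size or steadiness.

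**Figure D2:**
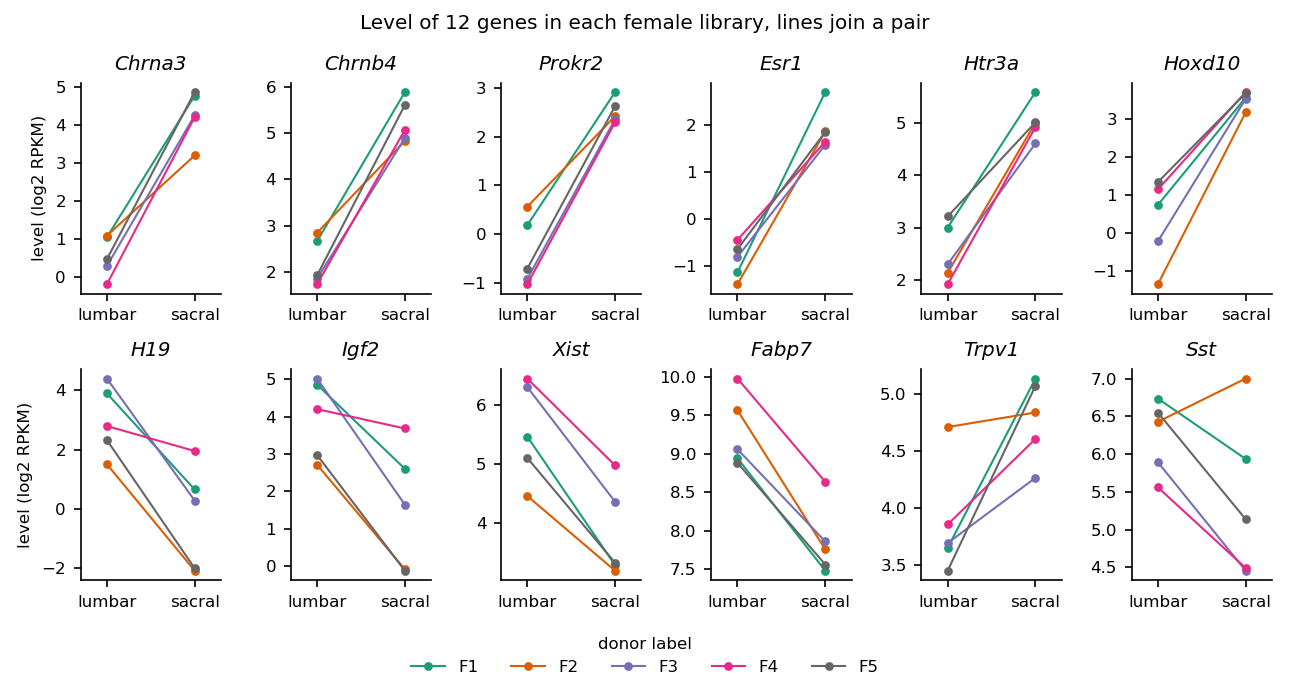
Level (log2 RPKM, vertical axes, which differ between panels) of 12 genes in each female library, with a line joining the lumbar and sacral library of 1 pair. The first 6 genes rise in all 5 pairs, H19, Igf2, Xist and Fabp7 fall in all 5, Trpv1 rises least in F2, and Sst falls in 4 pairs and rises in F2.

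Hox genes encode homeodomain factors whose expression along the body axis follows their order in the clusters, the higher-numbered groups lying more caudally. Of 24 tested Hox genes, 6 were sacral-high (25%, against 15.0% of all genes) and 5 lumbar-high (20.8%, against 8.30%). Under the 5 other scalings 5 to 8 were lumbar-high, and with libraries centred on the pan-neuronal markers, as described below, 3 were sacral-high (12.5%, against 1.36% of all genes under that centring) and 14 lumbar-high (58.3%, against 49.5%). Only 16 of the 24 passed the mean limit at both levels, 6 passing through the lumbar level alone and 2 through the sacral level alone. Among the 8 genes of groups 8 to 11 that passed at both levels 5 were sacral-high and none lumbar-high, and among the 8 of groups 1 to 7 none was sacral-high and 2 were lumbar-high.

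Hoxd11 had lumbar levels of 0.76, -4.15, -0.67, 0.39 and 1.17 and sacral levels of 2.93, 2.63, 2.85, 2.89 and 3.19, and Hoxd10 went from 0.73, -1.36, -0.23, 1.14 and 1.34 to 3.56, 3.17, 3.53, 3.71 and 3.68. In both, the F2 lumbar library was the lowest of all, while the sacral libraries stayed within 1 log2 unit of each other. The differences were 3.4 ± 0.56 (adjusted p = 0.00246) and 3.21 ± 0.28 (adjusted p = 0.000168). Both genes share exons with a read-through gene, Gm20440. Hoxc11 had no value in the F2 lumbar library and few reads in other lumbar libraries, down to 2, so its fitted difference of 3.85 ± 0.66 (adjusted p = 0.00377) rests on low levels, and it passed the mean limit through the sacral level alone. Hoxc10 (0.93 ± 0.13), Hoxd9 (0.98 ± 0.16) and Hoxd8 (0.56 ± 0.12) rose in all 5 pairs, and none of these 3 passed the test under that centring. Among the lumbar-high genes, Hoxc5 fell by 2.86 (SE 0.55), Hoxb7 by 1.75 (SE 0.38), Hoxc8 by 1.29 (SE 0.32), Hoxc6 by 1.07 (SE 0.23) and Hoxa7 by 0.46 (SE 0.13). Hoxc5, Hoxb7 and Hoxc8 passed the mean limit through the lumbar level alone. Hoxa7 lost its call without any 1 of pairs F1 to F4. Hoxa9 (0.18, adjusted p = 0.459), Hoxa10 (0.25, adjusted p = 0.309) and Hoxc9 (0.08, adjusted p = 0.852) did not pass the test.

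Receptors for steroid and sex hormones and their relatives formed a further list. Of 16 tested, 8 were sacral-high and 1 lumbar-high, with a median of 0.42 beside 0.12 for all genes. With libraries centred on the pan-neuronal markers, as described below, 4 were sacral-high and 4 lumbar-high (25% each, against 1.36% and 49.5% of all genes) and the median was -0.17, beside -0.47 for all genes. Esr1, the oestrogen receptor alpha, had lumbar levels of -1.14, -1.39, -0.81, -0.45 and -0.64 and sacral levels of 2.7, 1.86, 1.58, 1.65 and 1.85. The groups were separate, and F1 sacral stood above the other sacral libraries. The difference was 2.81 ± 0.27 (adjusted p = 0.00026), 7.02-fold. Paqr9, a membrane progestin receptor of the adiponectin receptor family, rose by 1.25 ± 0.17, whereas its relative Paqr6 fell by 1.04 (SE 0.20, adjusted p = 0.0052). Chosen after their values were seen, Pgr, the progesterone receptor, rose by 1.97 ± 0.38 (adjusted p = 0.00548) from levels below 0 in every lumbar library, having passed the mean limit through the sacral level alone. Prlr, the prolactin receptor, rose by 0.96 ± 0.21 (adjusted p = 0.00989) but did not pass under that centring (adjusted p = 0.191). Prlr shares exon sequence with Agxt2 on the same strand. Esr2, Esrrg and Oxtr did not pass the filter.

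The sort was checked against markers of the cells that a ganglion holds. Trpv1 itself, at 3.65, 4.71, 3.69, 3.85 and 3.45 in lumbar and 5.14, 4.84, 4.26, 4.61 and 5.07 in sacral libraries, was present throughout. It was higher in the sacral library of each pair, by 0.91 ± 0.20 (adjusted p = 0.00878), although the levels overlapped: lumbar F2 lay above 2 sacral libraries. Of 13 tested pan-neuronal markers 10 were sacral-high and none lumbar-high, with a median of 0.57, and under the 5 other scalings 5 to 8 were sacral-high. Their mean level was 6.69 in lumbar libraries (SD 0.24, n = 5) and 7.28 in sacral libraries (SD 0.1, n = 5). It was higher in the sacral library of all 5 pairs, and the exact sign-flip permutation test gave p = 0.0625, the smallest that 5 pairs allow. In bulk samples, fewer cells of a type and less RNA per cell cannot be told apart.

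Markers of other cells were present and differed in the other direction. Satellite glial markers averaged 5.64 at the lumbar level (SD 0.31, n = 5) and 4.6 at the sacral level (SD 0.3, n = 5), and myelinating Schwann cell markers 4.06 (SD 0.57) and 3.27 (SD 0.56). Each list was lower in sacral libraries in all 5 pairs (two-sided exact p = 0.0625 each). Of 13 tested satellite glial markers 12 were lumbar-high and none sacral-high (median -1.13), and of 14 Schwann cell markers 12 and none (median -0.92). The defining genes of these cells were far from 0: Sox10, the glial transcription factor, ran from 3.97 to 5.11 in lumbar and from 2.77 to 3.98 in sacral libraries, and Fabp7, a lipid carrier of glia, from 8.88 to 9.98 and from 7.48 to 8.64. Fabp7 fell by 1.43 (SE 0.12, adjusted p = 0.000147). Among Schwann cell genes, Ugt8a fell by 1.16 (SE 0.12), Fa2h by 1.33 (SE 0.18), Mal by 0.98 (SE 0.12) and Mbp by 0.97 (SE 0.14). The Fa2h call was lost with no block.

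Vascular, connective tissue and immune markers followed the glial ones at lower levels. Of 12 tested endothelial and mural markers 9 were lumbar-high (75%), of 10 fibroblast markers 6 (60%), and of 9 macrophage markers 3 (33.3%), against 8.30% of all genes. By contrast 1 fibroblast marker was sacral-high (10%, against 15.0% of all genes). Their marker means differed by -0.82, -0.89 and -1.28 and were lower in the sacral library of all 5 pairs (exact p = 0.0625 each, two-sided). Ly6c1, on endothelial cells, fell by 1.27 (SE 0.17) and Cldn5, a tight-junction protein, by 1.04 (SE 0.18), the Cldn5 call being lost with the pair as a random block or no block. Collagen genes Col1a2 and Col3a1 fell by 1.39 (SE 0.15) and 1.36 (SE 0.25). The Ly6c1 and Col3a1 calls were lost with no block. Macrophage levels were the most uneven: Lyz2, lysozyme, ran from 2.12 to 4.2 in lumbar and from -0.14 to 2.24 in sacral libraries. It fell by 1.82 (SE 0.38, adjusted p = 0.00755), a call lost under robust moderation. Of the 9 macrophage markers 5 passed the mean limit through the lumbar level alone, and 2 of the 4 that passed at both levels were lumbar-high. Of the red cell markers 3 were tested, with 1 sacral-high and none lumbar-high. No neutrophil marker passed the filter. With the mean of 27 satellite glial and Schwann cell markers as a covariate, 8 genes were called, 2 of them sacral-high. That mean was lower in the sacral library of every pair, with differences from -1.12 to -0.73, so that the covariate and the level can hardly be told apart in this design.

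**Figure D3:**
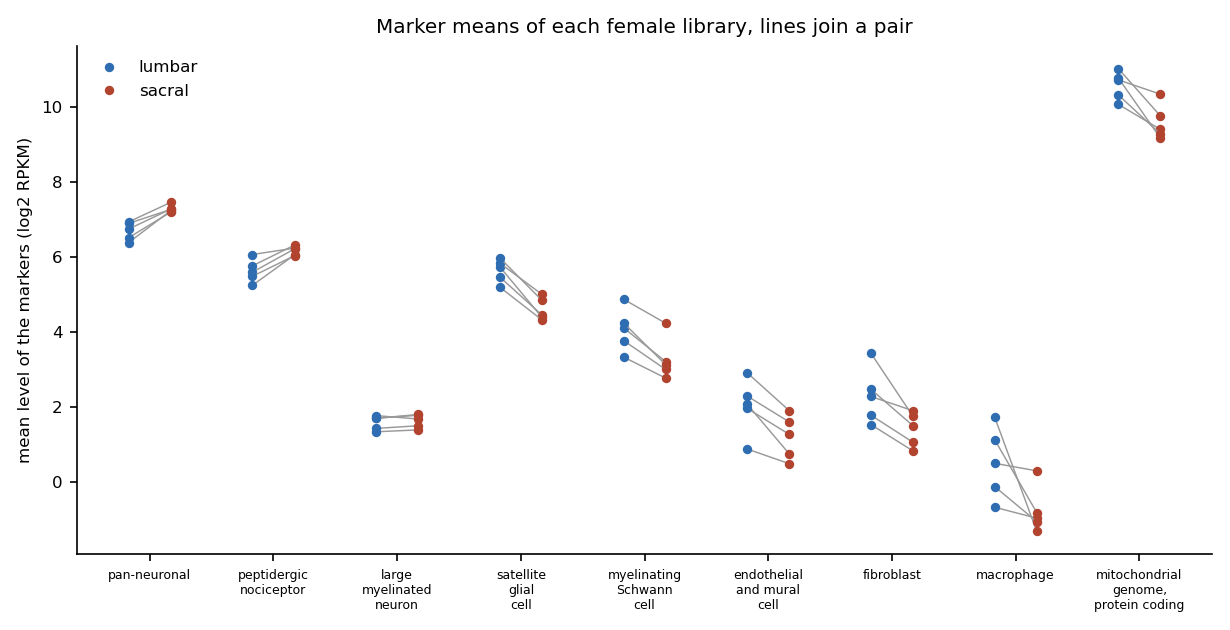
Mean level (log2 RPKM, vertical axis) of 9 marker lists in each female library, lumbar in blue and sacral in red, with lines joining pairs. Pan-neuronal and peptidergic nociceptor means are higher in the sacral library of every pair, large myelinated neuron means differ by at most 0.10, and glial, vascular, fibroblast, macrophage and mitochondrial means are lower in every pair.

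Neuronal genes can also be set against the neuronal markers. With each library centred on its pan-neuronal marker mean, an alternative added after the data were seen, 210 genes were sacral-high (1.36%) and 7657 lumbar-high (49.5%), and the median over all genes became -0.47. The centring moves all genes of a library by 1 amount, so that the counts given for it here and further on stand beside these 2 shares. All 210 were also sacral-high as deposited, where they make up 9.04% of the sacral-high calls. The 13 sacral-high genes named by size or steadiness all stayed sacral-high: Chrna3 by 3.1, Chrnb4 by 2.45, Prokr2 by 2.32, Esr1 by 2.22 and Htr3a by 1.93, for example. They were chosen in these same data for large or steady differences, so that their staying is not independent support. Trpv1 no longer passed (difference 0.32, adjusted p = 0.199). The glial lists, lumbar-high as deposited, could only move further down, with 13 of 13 and 13 of 14 members lumbar-high. The named genes Scn10a, Trpm8, Gal, Gap43, Atf3, Fosl2, Cacna1h, Cacna1b, Cacna2d1, Gfra1, Bdnf and Gdnf, sacral-high as deposited, did not pass under this centring. Their differences under it ran from 0.05 for Gap43 and 0.11 for Bdnf to 1.79 for Gdnf (adjusted p = 0.0562), so that a lost call does not show a difference near 0. Gap43 is itself 1 of the 13 markers that define it.

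Lists for neuron subtypes are given next, and no test compared 1 list with another. Of 13 peptidergic nociceptor genes, 8 were sacral-high, with a median of 0.62, falling to 0.03 under neuronal centring. Kit, the stem cell factor receptor, rose by 1.08 ± 0.14 (adjusted p = 0.001), and lumbar F2 (4.81) stood well above the other lumbar libraries. The voltage-gated sodium channels of nociceptors, Scn10a and Scn11a, rose by 0.84 ± 0.14 and 1.02 ± 0.16. Calca, the gene of calcitonin gene-related peptide, and Tac1, the gene of substance P, did not pass, at -0.23 (adjusted p = 0.223) and -0.01 (adjusted p = 0.947). Th, the dopamine-synthesis enzyme that marks low-threshold C fibres, rose by 1.1 ± 0.11 (adjusted p = 0.000281), and the cold receptor Trpm8 by 0.67 ± 0.14 (adjusted p = 0.00878). The Trpm8 call was also lost after quantile normalization and with mitochondrial reads left out of the scaling.

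Genes of nonpeptidergic and itch neurons were mixed. Of 16 tested, 5 were sacral-high (31.2%, against 15.0% of all genes) and 1 lumbar-high (6.25%, against 8.30%). Under neuronal centring 3 and 7 were called (18.8% and 43.8%), with a median of -0.15. Ret, the signalling receptor for GDNF family ligands, rose by 0.86 ± 0.12, and the itch receptor Mrgpra3 by 0.95 ± 0.14. Mrgprb4, a receptor of stroking-sensitive fibres, rose by 2.35 ± 0.48 over 4 pairs, having no value in the F2 lumbar library, a call lost without the variance trend and under robust moderation. Sst, the somatostatin precursor, had lumbar levels of 6.74, 6.43, 5.89, 5.56 and 6.55 and sacral levels of 5.94, 7.0, 4.46, 4.49 and 5.14. It fell in 4 pairs and rose in F2, with a mean of -0.83 ± 0.24 (adjusted p = 0.0312), a call lost without any 1 of pairs F1, F3, F4 and F5. The Sst call was also lost with the pair as a random block or no block, without the variance trend and under robust moderation. Of 10 tested markers of large myelinated neurons 3 were sacral-high (30%, against 15.0% of all genes) and 2 lumbar-high (20%, against 8.30%). Under the 5 other scalings 1 to 2 were sacral-high and 1 to 3 lumbar-high, and the median of 0.22 turned to -0.01 with mitochondrial reads left out of the scaling. Their mean level, 1.59 at the lumbar level (SD 0.19, n = 5) and 1.63 at the sacral level (SD 0.18, n = 5), was well under that of the nociceptor list. Spp1, osteopontin, fell by 1.70 (SE 0.23). Nefh, the heavy neurofilament, rose by 0.49 ± 0.12 from a mean of 4.75 to 5.24, well above the list's mean, turning to -0.10 under neuronal centring. The Nefh call was also lost without F1, without the variance trend, after quantile normalization and with mitochondrial reads left out of the scaling. Pvalb, the parvalbumin of muscle afferents, fell by 2.23 (SE 0.65, adjusted p = 0.0345), with no value in 1 sacral library and as few as 2 reads in others, and passed the mean limit through the lumbar level alone. Its call was lost with the pair as a random block or no block, with array weights, after quantile normalization and without F3.

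Of 16 tested neuropeptide genes, 9 were sacral-high and 2 lumbar-high, with a median of 0.76. Of these, 1 passed the mean limit through the sacral level alone, and of the 15 that passed at both levels 8 and 2 were called, with a median of 0.7. Under neuronal centring 4 and 7 of the 16 were called (25% and 43.8%), with a median of 0.17. Penk, the enkephalin precursor, had lumbar levels of 2.19, 1.91, 1.81, 1.93 and 1.39 and sacral levels of 3.32, 3.11, 4.27, 3.98 and 3.34. The groups were separate, with a difference of 1.76 ± 0.20 (adjusted p = 0.000462). Vgf, a secreted granule protein, rose by 1.43 ± 0.20, Scg2, a secretogranin, by 0.98 ± 0.14, and Adcyap1, the precursor of PACAP, by 0.83 ± 0.11. Galanin (Gal) rose by 0.87 ± 0.14 (adjusted p = 0.00271). The lumbar-high members were Sst and neurotensin, Nts, which was chosen after its values were seen and fell by 1.11 (SE 0.24, adjusted p = 0.0092), higher in sacral only in pair F2.

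**Figure D4:**
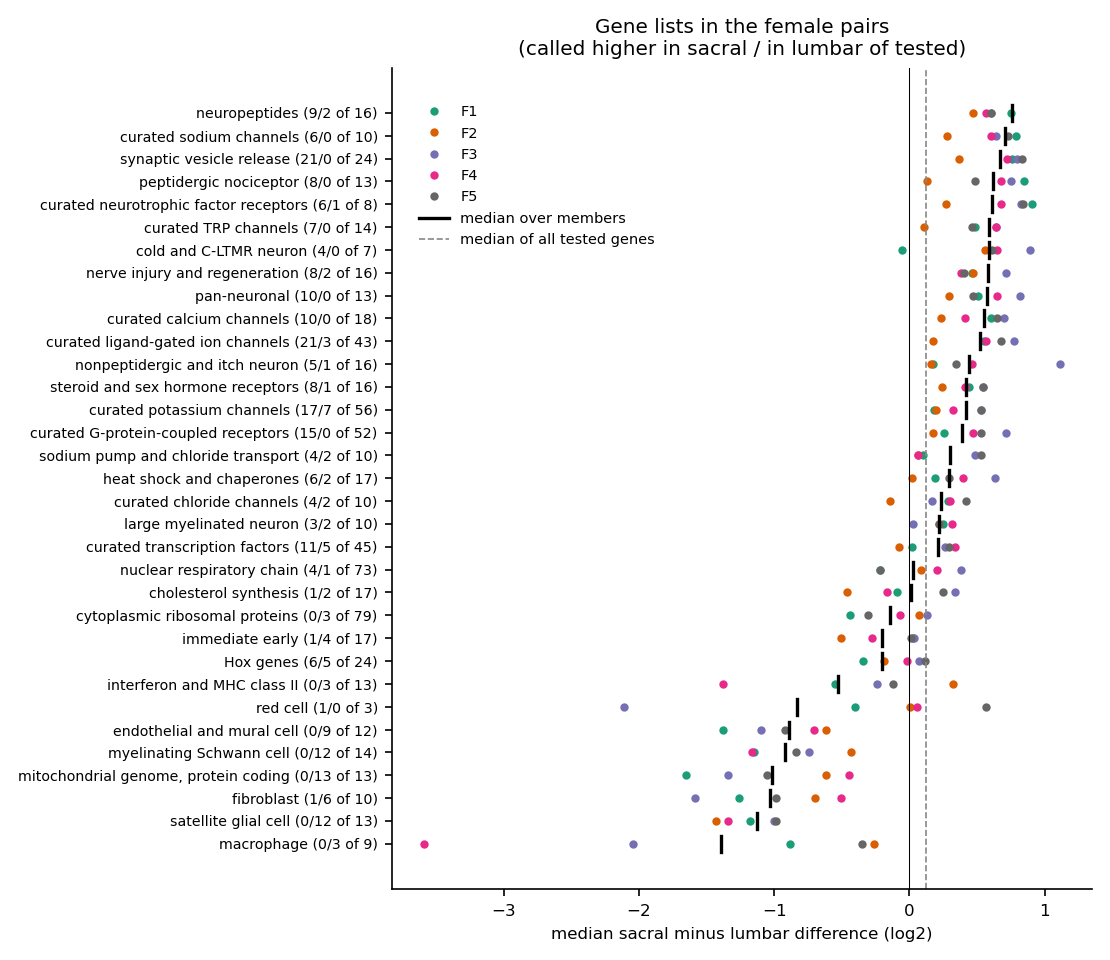
Median sacral minus lumbar difference (log2, horizontal axis) of 33 gene lists with 3 or more tested members, in each pair (points) and over members of the fit (black bars), with the counts called sacral-high and lumbar-high of those tested after each name. The dashed line is the median of all tested genes, 0.12, and the lists run from neuropeptides at 0.76 down to macrophage markers at -1.39.

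Genes of synaptic vesicle release, the machinery that neurons use to secrete transmitter, were sacral-high almost throughout: 21 of 24 tested and none lumbar-high, with a median of 0.67. Slc17a6, the vesicular glutamate transporter of sensory neurons, had lumbar levels in the range 4.75 to 5.52 and sacral levels in the range 6.21 to 6.6, and rose by 1.12 ± 0.12 (adjusted p = 0.000393). Syn2, a synapsin, rose by 1.19 ± 0.12 and the vesicle proteins Sv2a and Sv2b by 1.08 ± 0.14 and 1.15 ± 0.12. These 4 genes had the smallest p of their list. In each, all sacral libraries lay above all lumbar ones, as in 979 of the 2323 sacral-high calls. Under neuronal centring 6 members were sacral-high and 1 lumbar-high (25% and 4.17%), with a median of 0.08, and these 4 genes still passed.

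The study's own curated sets of signalling genes had more sacral-high than lumbar-high members on the deposited scale, and as the study assembled them they are not independent evidence of a direction. Of 43 ligand-gated ion channels 21 were sacral-high (48.8%) and 3 lumbar-high (6.98%), with a median of 0.52. Of 52 G-protein-coupled receptors 15 were sacral-high (28.8%) and none lumbar-high (median 0.39). Of all genes 15.0% and 8.30% were called. Of the 52 receptors 6 passed the mean limit through the sacral level alone, and 13 of the 15 calls were among the 45 that passed at both levels. Under neuronal centring the counts became 8 and 8 for the ligand-gated channels (median -0.07) and 7 and 15 for the G-protein-coupled receptors (median -0.2). These are 18.6% each of the channels and 13.5% and 28.8% of the receptors, against 1.36% and 49.5% of all genes. Beyond the nicotinic and serotonin receptors above, Gabra3, a subunit of the GABA-A receptor, rose by 1.23 ± 0.13 (adjusted p = 0.000374). Among G-protein-coupled receptors, the prostacyclin receptor Ptgir rose by 1.13 ± 0.14 and Gpr64 by 0.97 ± 0.14. Chosen after their values were seen, Gabrg3, another GABA-A subunit, rose by 1.95 ± 0.26, and the purinergic channel P2rx7 fell by 1.16 (SE 0.18, adjusted p = 0.002). Of 14 TRP channels 7 were sacral-high (50%, against 15.0% of all genes) and none lumbar-high, led by Trpc4 (1.26 ± 0.21, adjusted p = 0.00301). Under the 5 other scalings 2 to 7 were sacral-high, and under neuronal centring 1 was sacral-high and 2 were lumbar-high.

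The counts for voltage-gated and other channels under neuronal centring stand likewise beside 1.36% sacral-high and 49.5% lumbar-high of all genes. The deposited counts stand beside 15.0% and 8.30%. Of 18 calcium channel genes 10 were sacral-high and none lumbar-high (median 0.55), and 1 (5.56%) and 2 (11.1%) under that centring (median -0.04): the R-type channel Cacna1e rose by 1.72 ± 0.28, the T-type channel Cacna1h by 0.89 ± 0.17 and the N-type channel Cacna1b by 0.89 ± 0.17. The gabapentin target Cacna2d1 rose by 0.79 ± 0.14. Of 10 sodium channel genes 6 were sacral-high and none lumbar-high (2 and 1 under centring), with Scn9a, the channel Nav1.7, at 0.96 ± 0.14. Of 56 potassium channel genes 17 were sacral-high (30.4%, against 15.0% of all genes) and 7 lumbar-high (12.5%, against 8.30%). Under the 5 other scalings 7 to 14 were sacral-high and 6 to 9 lumbar-high, and under centring 1 (1.79%) and 17 (30.4%). Of the 56, 1 passed the mean limit through the lumbar level alone and 3 through the sacral level alone, and of the 52 that passed at both 17 and 6 were called. Those that fell included Kcnj10 (by 1.28, SE 0.12), the inward rectifier of satellite glia, and Kcnj16 (by 1.17, SE 0.18), its partner subunit. Kcnn4, the intermediate-conductance calcium-activated channel, fell by 1.65 (SE 0.24), while Kcnk2, a mechanically gated leak channel, rose by 1.1 ± 0.17. Of 10 chloride channels 4 were sacral-high (40%) and 2 lumbar-high (20%), the latter led by Ttyh1 (by 1.19, SE 0.14). Under the 5 other scalings 1 to 3 were sacral-high and 2 to 3 lumbar-high, and under centring 0 and 5. Of 10 sodium pump and chloride transport genes 4 were sacral-high (40%) and 2 lumbar-high (20%), among the latter the pump subunit Atp1b2, which fell by 1.04 (SE 0.12). Under the 5 other scalings 2 to 3 were sacral-high and 3 lumbar-high, and under centring 0 and 3.

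Neurotrophic signalling was mostly sacral-high as deposited. Of 8 receptors 6 were sacral-high (2 under centring), among them Ngfr, the low-affinity neurotrophin receptor (1.2 ± 0.12, adjusted p = 0.000282), and Gfra1, the GDNF co-receptor (0.92 ± 0.13). Ntrk2, the receptor for BDNF, fell by 0.71 (SE 0.15, adjusted p = 0.00743). The ligand Bdnf rose by 0.70 ± 0.13. Gdnf, at 2 to 224 reads, rose by 2.38 ± 0.69 (adjusted p = 0.0315), with lumbar F5 at -6.66 far below the other lumbar libraries and the call lost without pair F1 or F2. It passed the mean limit through the sacral level alone. Of 45 transcription factors of the curated set 11 were sacral-high (24.4%) and 5 lumbar-high (11.1%), beside 15.0% and 8.30% of all genes. Of the 45, 3 passed the mean limit through the lumbar level alone and 2 through the sacral level alone, and of the 40 that passed at both 10 and 4 were called. Under the 5 other scalings 7 to 11 of the 45 were sacral-high and 6 to 12 lumbar-high, and the median of 0.21 turned to -0.02 with mitochondrial reads left out of the scaling. Under centring 3 (6.67%) and 22 (48.9%) of the 45 were called. Pou4f3, a POU-domain factor of sensory neurons, rose by 1.69 ± 0.15 (adjusted p = 0.000206), and Maf and Hey2 fell by 1.24 (SE 0.16) and 1.20 (SE 0.14).

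The largest lumbar-high difference among the genes named by size was that of H19, an imprinted non-coding RNA. It had lumbar levels of 3.9, 1.51, 4.4, 2.8 and 2.33 and sacral levels of 0.66, -2.08, 0.28, 1.95 and -2.0, and fell in every pair although the groups overlapped, since sacral F4 lay above lumbar F2. The mean was -3.22 ± 0.41 (adjusted p = 0.000833). Its imprinted neighbour Igf2, insulin-like growth factor 2, had lumbar levels of 4.85, 2.72, 5.01, 4.2 and 2.97 and sacral levels of 2.6, -0.08, 1.65, 3.68 and -0.12, a mean of -2.40 ± 0.33 (adjusted p = 0.00105). In both genes the smallest fall was in F4. They lie 72624 bases apart on chromosome 7 (mm9 chr7:149761434-149764048 and chr7:149836673-149852721), and an antisense gene, Igf2as, overlaps Igf2 on the other strand, whose reads cannot be told apart where strand was not kept.

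The other lumbar-high genes named by size included genes of connective tissue and smooth muscle and small RNAs. Acta2, smooth muscle actin, fell by 2.14 (SE 0.29, adjusted p = 0.00105), Mfap5, a microfibril protein, by 2.23 (SE 0.38), and the secreted protein Olfml1 by 2.26 (SE 0.21, adjusted p = 0.000227). The Acta2 call was lost with no block. Vamp5, a muscle vesicle protein that passed the mean limit through the lumbar level alone, fell by 2.52 (SE 0.50), the cadherin Cdh20 by 1.85 (SE 0.31), and Cox6b2, a testis form of a cytochrome oxidase subunit, by 1.84 (SE 0.38). The small RNAs SNORA66 (1 to 68 reads per library), SNORA32 (1 to 46), Snora31 (4 to 72) and a copy of SNORD113 (8 to 117) fell by 2.58 (SE 0.61), 2.46 (SE 0.38), 2.17 (SE 0.38) and 1.91 (SE 0.28). These are shallow counts of short genes, and the SNORA66 call was lost without the variance trend, without the block and under robust moderation. By contrast Ucp2, a mitochondrial carrier, and Sepp1, selenoprotein P, were measured with at least 2031 and 11405 reads in every library and fell by 1.54 (SE 0.11, adjusted p = 7.12e-05) and 1.34 (SE 0.11, adjusted p = 0.000106), with no overlap between groups. Of the 1284 lumbar-high calls, 366 had no overlap.

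Xist, the RNA that silences an X chromosome in female cells, was among the 4 steadiest lumbar-high genes. Its lumbar levels were 5.46, 4.45, 6.3, 6.44 and 5.1 and its sacral levels 3.28, 3.19, 4.36, 4.97 and 3.32. It fell in every pair, by 1.73 on average (SE 0.14, adjusted p = 0.000112), with sacral F4 above lumbar F2. The antisense gene Tsix overlaps it, and the X-linked genes as a whole had a median of 0.13. With libraries centred on the pan-neuronal markers the Xist difference was -2.32. All 1284 lumbar-high genes stayed lumbar-high under that centring, so this value adds no separate support.

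All 13 protein-coding genes of the mitochondrial genome were lumbar-high, with a median of -1.02. Under the 5 other scalings 7 to 13 were, and the median after quantile normalization was -0.66. Their mean level was 10.57 at the lumbar level (SD 0.38, n = 5) and 9.58 at the sacral level (SD 0.47, n = 5), with pair differences from -1.60 to -0.39 and the smallest fall in F4. Of the 37 tested genes of that genome, 29 were lumbar-high. Nuclear genes of the respiratory chain, which encode the other subunits of the same complexes, had 4 of 73 sacral-high (5.48%, against 15.0% of all genes). Lumbar-high was 1 (1.37%, against 8.30%). Under the 5 other scalings to all genes 0 to 3 were sacral-high and 3 to 8 lumbar-high, and the median of 0.03 turned negative, down to -0.20. Sdha (0.47 ± 0.11) and Atp5a1 (0.53 ± 0.13) rose, though both were below 0 relative to the neuronal markers and neither passed after quantile normalization or with mitochondrial reads left out of the scaling. Atp5e fell by 0.51 (SE 0.15), a call lost without F1 or F5. Of 79 cytoplasmic ribosomal protein genes, 3 were lumbar-high (Rps25, Rps24 and Rpl9), or 3.8% against 8.30% of all genes. None was sacral-high, against 15.0% of all genes, and the median was -0.14. Under the 5 other scalings 8 to 16 of the 79 were lumbar-high. The Rpl9 call was lost without any 1 pair, and those of Rps25 and Rps24 without F1, F4 or F5. These calls and that of Atp5e were also lost with the pair as a random block or no block.

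Lists for the state of the cells are given beside the 15.0% of all genes that were sacral-high and the 8.30% that were lumbar-high. Nerve injury and regeneration genes had 8 of 16 sacral-high (50%) and 2 lumbar-high (12.5%): Atf3, an injury-induced factor, rose by 0.65 ± 0.12 (adjusted p = 0.0045) and Gap43, a growth cone protein, by 0.64 ± 0.10, and their list's median, 0.58, was -0.01 under neuronal centring. Immediate early genes, which respond to dissociation among other stimuli, had 1 of 17 sacral-high (5.88%), Fosl2, by 0.82 ± 0.13, and 4 lumbar-high (23.5%, with 6 to 10 genes under the 5 other scalings), including Zfp36 (by 0.63, SE 0.15) and Ier2 (by 0.55, SE 0.13). Another of the 4, Egr2 (-0.41 ± 0.13), is also on the myelinating Schwann cell list. The Zfp36 call was lost with the pair as a random block and that of Ier2 without F4. With no block both were lost, as was the Atf3 call. Heat shock and chaperone genes had 6 of 17 sacral-high (35.3%, with 1 to 5 genes under the 5 other scalings) and 2 lumbar-high (11.8%), Cryab by 1.01 (SE 0.14) and Hspe1 by 0.65 (SE 0.13). The Hspe1 call was lost with no block. Cholesterol synthesis genes had 1 of 17 sacral-high (5.88%) and 2 lumbar-high (11.8%). Under the 5 other scalings 0 to 1 were sacral-high and 4 to 6 lumbar-high, and their median of 0.01 turned negative. Interferon and MHC class II genes had none of 13 sacral-high and 3 lumbar-high (23.1%, with 4 to 6 genes under the 5 other scalings), Ifitm3 falling by 0.79 (SE 0.15). In all these lists the glial markers, lower by 0.91 on average in sacral libraries, and the mitochondrial share moved alongside the comparison, and their part in the results was not tested.

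The female differences were set against those of the 5 male pairs, which share no library with them. Across 15119 genes tested in both sexes the differences correlated at r = 0.77, a description over genes. Of 3556 female calls tested in males, 2568 were called there too (72.2%), which is 60.6% of the 4239 male calls tested in females. Of the 2568, 2566 had the same sign in both sexes, and 3207 of all genes had the same direction in all 10 pairs. Among 15739 genes tested in males 17.6% were sacral-high and 10.1% lumbar-high. Beside the female values above, the male differences were 2.77 for Chrna3, 2.24 for Chrnb4, 1.58 for Prokr2, 2.61 for Esr1, 3.1 for Penk and -2.5 for H19.

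A limma test of the difference itself, female minus male, called 0 of 15420 genes (0%). An unadjusted p under 0.05 was reached by 624 genes, and the lowest adjusted p was 0.253. With a pseudocount of 1 the same test called 1 gene, Xist (adjusted p = 0.00137). Xist is an RNA of female cells with values in only 3 male pairs, so this call says nothing beyond its fall in females. The 6 genes with the smallest p and values in all 20 libraries were Htr1f, Nefh, Thbs1, Il31ra, Gpr139 and Lgi3. Htr1f, a serotonin receptor of itch neurons, differed by -0.58 ± 0.21 in females and by 0.97 in males, and Il31ra, the receptor of the itch cytokine interleukin 31, by -0.36 ± 0.18 and 0.88. Both were lower in the sacral library of 4 female pairs and higher in F2. The orphan receptor Gpr139 differed by -0.00 ± 0.14 in females and 0.89 in males. Nefh (0.49 against -0.55), Thbs1, the matrix protein thrombospondin 1 (1.08 against -0.29), and Lgi3, a secreted synaptic protein (0.29 against -1.17), were above 0 in females and below 0 in males. None of these 6 passed adjustment.

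**Figure D5:**
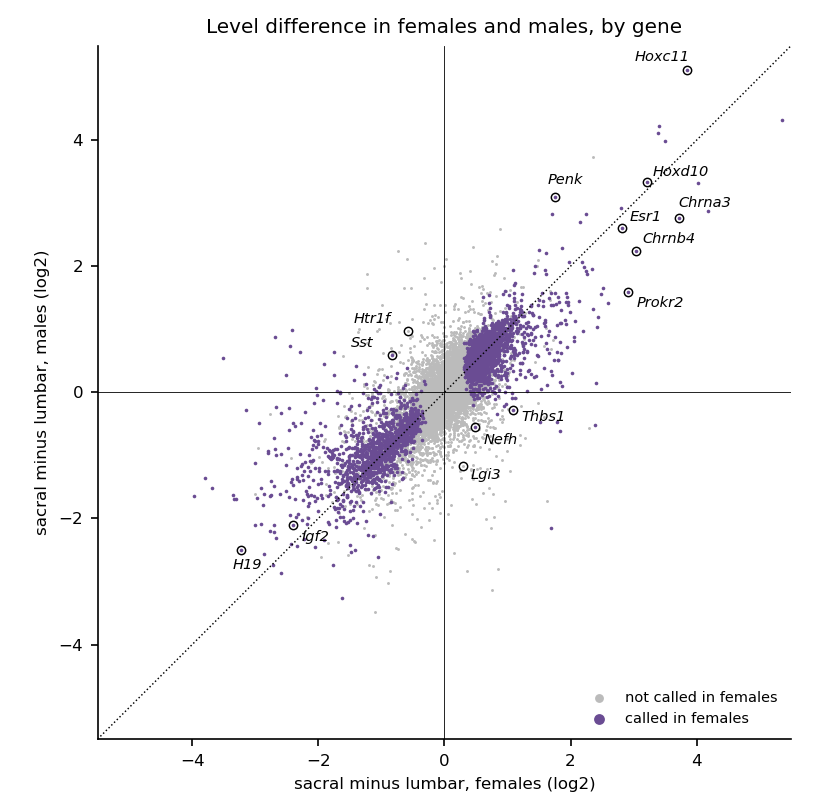
Sacral minus lumbar difference (log2) of each gene in males (vertical axis) against females (horizontal axis), with genes called in females in purple, named genes ringed and the dotted line marking equal differences. Of the 2568 genes called in both sexes 2566 lie in the quadrants of equal sign, and Nefh, Thbs1, Lgi3, Htr1f and Sst lie in the quadrants of opposite sign.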

How the data were processed

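Sorted ganglion neurons of 20 libraries were profiled by RNA-seq, and the 10 female libraries are used here. RNA was amplified with the NuGEN Ovation system and made into Nextera XT libraries. Per the study's methods, the authors checked read quality with the FASTX toolkit, aligned them to mm9 with Subread, keeping unique alignments, and counted them with featureCounts against the Ensembl annotation. The submitters' processing notes also list edgeR 3.12.1 and limma 3.26.9. The methods give voom with a trimmed-mean adjustment of library size and then RPKM. The authors deposited log2 RPKM values for 37620 genes, whose median over the values present is 0.93 in each female library, and empty cells were treated as missing. Amplification and the absence of molecular identifiers mean that reads are not independent molecules.

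Sacral minus lumbar differences were fitted with limma 3.58.1 in R 4.3.3 (pair as fixed block, mean-variance trend) and adjusted by Benjamini-Hochberg over the 15470 tested genes, with a threshold of 0.05. The deposited values step in whole reads for 27947 of 28233 genes (tolerance 0.01), which gave the read numbers and a voom alternative. The scripts were tested on simulated data. Pairing comes from the animal numbers in the labels. Libraries of 1 pair deviated together from their group means at r = 0.036 to 0.285, against -0.083 to -0.007 with other pairs. Marker means were compared by a two-sided exact sign-flip permutation test, which cannot go below 0.0625 with 5 pairs.

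Named genes were, first, the 12 largest differences in each direction among called genes with 10 values, a mean above 0 and the same direction in all 5 pairs, predicted genes left out. Up to 4 members of each list with the smallest p, Trpv1 and Hox genes, the 6 smallest p of the sex by level difference and the 4 steadiest genes in each direction were added. Calca and Tac1 and the genes so marked were chosen after their values were seen. The members and lists were chosen with earlier results of these data known. Alternatives covered scaling, filter, pseudocount, block, moderation, weights, a glial covariate and leaving out each pair. Centring on pan-neuronal markers was added after seeing the data. A few genes that the rule names are not reported here.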

Additional observations from a re-analysis of the deposited data

Results flagged for a closer look

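Among 350 groups of female libraries checked, mainly for the named genes, 11 held a library that stood apart. Its gap to its nearest neighbour exceeded 0.71 of the group's range, the 95% limit of Dixon for 5 values. Chance passes that limit in about 1 in 20 groups, and 11 of 350 is a lower rate, so the cases are descriptions only. Lumbar F2 stood apart in 4 genes: Cacna1b at 5.11 (others 3.92 to 4.0) and Kit at 4.81 (3.96 to 4.18) on the high side, Bet3l at 1.08 (1.77 to 1.96) and SNORD113 at 3.14 (4.72 to 5.14) on the low side. Lumbar F5 was low in SNORA66, at -0.93 (2.20 to 3.42), and in Gdnf, at -6.66 (-2.14 to -1.35). Sacral F1 was high in Esr1, at 2.70 (1.58 to 1.86), and low in Hoxc9, at -0.98 (0.13 to 0.34). The remaining cases were sacral F2 in Mrap2 at 2.03 (2.76 to 3.03), sacral F3 in Mbp at 5.90 (5.0 to 5.21) and sacral F4 in Mrgpra3 at 4.57 (5.5 to 5.87).

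In 7 genes all 5 female pairs were higher in sacral and all 5 male pairs higher in lumbar, and in 4 genes the reverse held. The named genes among them were Nefh, with a female minus male difference of 1.04 (0.49 in females, -0.55 in males, limma adjusted p = 0.253), and the sodium channel Scn8a, with 0.89 (0.29 and -0.60, adjusted p = 0.592). Neither difference passed adjustment. Scn8a was chosen after its values were seen.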

How the results depend on the processing

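Of 141 called named genes, 141 stayed called with a pseudocount of 1 and 141 with trimmed-mean scaling, 131 with the pair as a random block and 125 to 135 without 1 pair (140 could be tested without F2, F4 or F5). Without the variance trend 124 stayed called. Under neuronal centring 111 stayed, 24 were lost and 6 reversed. With the glial covariate 2 stayed, 110 were lost and 29 reversed. Without the pairing block 2433 genes were called, 777 of them lumbar-high, and 118 of the 141 stayed. Sacral-high calls numbered 1432 with trimmed-mean factors, 1377 with the pair median set to 0 and 1114 after quantile normalization. Without the variance trend there were 2316 calls (1255 sacral-high), and at an adjusted p of 0.01 there were 1385 (806 and 579). Without mitochondrial reads in the scaling there were 838 sacral-high and 2071 lumbar-high calls, and after neuronal centring 7867 (210 and 7657). Leaving out 1 pair gave 2232 to 3673 calls, 1235 to 2508 sacral-high and 891 to 1165 lumbar-high. The sex by level test called 1 gene with a pseudocount of 1 and 0 otherwise. The large myelinated marker mean became -0.09 with the pair median set to 0. Causes were not tested.

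With the glial covariate 8 genes were called (2 and 6). These differences turned, none of them passing the test: Cbln1 -0.35, Mrap2 -2.12, Oprk1 -0.84, SNORA66 3.33, Vamp5 1.0, Acta2 1.32, Cox6b2 0.52, Mrgprb4 -2.14, Mal 0.23, Lyz2 2.27, Tyrobp 0.14, Pgr -0.53, Prlr -0.26, Trpm2 -0.47, Kcnn4 1.15, Kcnj16 0.50, Ttyh1 0.07, Ntrk2 0.40, P2rx7 0.19, Pou4f3 -0.53, Maf 0.28, Cryab 1.01, Hspb1 -0.30, Insig1 0.53, Lss 0.12, Ifitm3 1.67, Thbs1 -0.26, Hoxc11 -1.09 and Hoxb7 1.53. After neuronal centring Nefh turned to -0.10, Sdha to -0.12, Atp5a1 to -0.06, Ndufv1 to -0.13, Hspb1 to -0.12 and Hoxd8 to -0.03.

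With 5 pairs and a median standard error of 0.17, smaller differences could not be called, and snoRNAs rest on few reads.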
